A study of Homo sapiens with 16 samples.

Results

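Replication-dependent histone mRNAs were examined in a RIP-seq study, in which RNA bound to a tagged protein is pulled down and sequenced beside the RNA of the whole lysate (input). The members are the protein-coding rows whose gene name is that of a clustered H1, H2A, H2B, H3 or H4 gene, or of H4-16. By this rule 51 of the 16324 genes of each table were members: 4 for H1, 13 for H2A, 13 for H2B, 10 for H3 and 11 for H4. RefSeq lists 69 protein-coding genes with names of this pattern, and 50 of them had a row here under the same name. The other 19 may have a row under another name, which was not checked. The member H4-16 was matched to no RefSeq entry by name, which does not mean that RefSeq lacks the gene.

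All libraries came from UM-SCC-1 cells, by their labels an established head and neck squamous carcinoma line. Cells were infected with lentivirus for a Strep-tagged empty vector (Strep-Vec-1), Strep-ALKBH5 or Strep-RBM33, kept in 1 µg/mL puromycin for 4 days, and used either as input or for a StrepTactin-XT pull-down. ALKBH5 is a demethylase of m6A in RNA, and RBM33 is an RNA-binding protein. The labels give 3 input and 3 pull-down libraries each to the vector and ALKBH5, and 2 of each to RBM33; the tagged proteins were expressed from the virus beside the cells' own genes, and nothing says that replicates were separate cultures. Strep-ALKBH5 cells in which RBM33 was silenced with siRNA were not analysed here. The values come from the authors' deposited tables, called here after the bait each one names, which hold a log2 fold change, an average log2 counts scaled to library size (CPM) and an adjusted p per gene and no value per library. Depth, standard deviation and n therefore cannot be given, and a difference between the tables cannot be tested. Both tables also carry the name siCtrl, which matches no sample label used here, so which libraries entered them is not settled. The ALKBH5 transcript had an average log2 CPM of 12.30 per the authors' deposited table on ALKBH5 and 6.68 in the other, and the RBM33 transcript 7.81 and 13.90. The tables state neither the groups compared nor the direction of the ratio, so values are called negative or positive as listed and are not read as depleted or enriched. Whether the tables share libraries is not stated either, and each table's values are given side by side. Of 30 squamous epithelial markers, 10 had a row per the authors' deposited tables, with average log2 CPM from 0.60 to 6.86 in the ALKBH5 table, and KRT5, KRT14 and TP63 were not among them. Of 19 markers of embryonic kidney lines or neurons, 12 had a row, from 1.79 for LHX1 to 8.10 for the neurofilament gene NEFL per the authors' deposited table on ALKBH5. Of 10 fibroblast markers, 5 had a row, from -0.33 to 7.95, the value of VIM, per the authors' deposited table on ALKBH5. These lists do not settle the type of the cells: squamous keratin markers named above had no row, and the cells are called by their label only.

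Histones package DNA into nucleosomes: H2A, H2B, H3 and H4 form the core, and H1 binds the linker DNA between cores. Replication-dependent histone genes are made in S phase, lack introns in their usual form, and sit in clusters where many near copies encode the same or nearly the same protein. Their mRNAs are the metazoan mRNAs whose 3′ end is a conserved stem-loop and not poly(A). The stem-loop-binding protein SLBP and the U7 small nuclear ribonucleoprotein direct the cut at that end, and SLBP also serves export, translation and decay.

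Histone mRNAs lay on the negative side for both baits. Per the authors' deposited table on ALKBH5, 46 of 51 members were negative at an adjusted p under 0.05 (edgeR, as listed by the authors) and 0 were positive, against 29.1% of all genes negative and 30.5% positive. Per the authors' deposited table on RBM33 the count was again 46 negative and 0 positive, against 27.0% and 24.0% of all genes. The same 46 members were called in both. The members' median log2 fold change was -1.77 per the authors' deposited table on ALKBH5 and -1.61 in that for RBM33, where all protein-coding genes had medians of -0.08 and -0.13. Only 3.92% of protein-coding genes were below the members' median per the authors' deposited table on ALKBH5, and 6.43% in that for RBM33.

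Stricter calls left most members in place. At an adjusted p under 0.01, all 46 stayed called in each of the authors' deposited tables, where 23.6% (ALKBH5) and 21.0% (RBM33) of all genes were negative. With a minimum of 1 log2 unit, 41 members were negative per the authors' deposited table on ALKBH5 and 42 in that for RBM33, against 16.2% and 16.7% of all genes. Under the Benjamini-Yekutieli adjustment of the authors' p-values, 46 and 44 members were negative, against 21.6% and 18.5% of all genes.

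**Figure D1:**
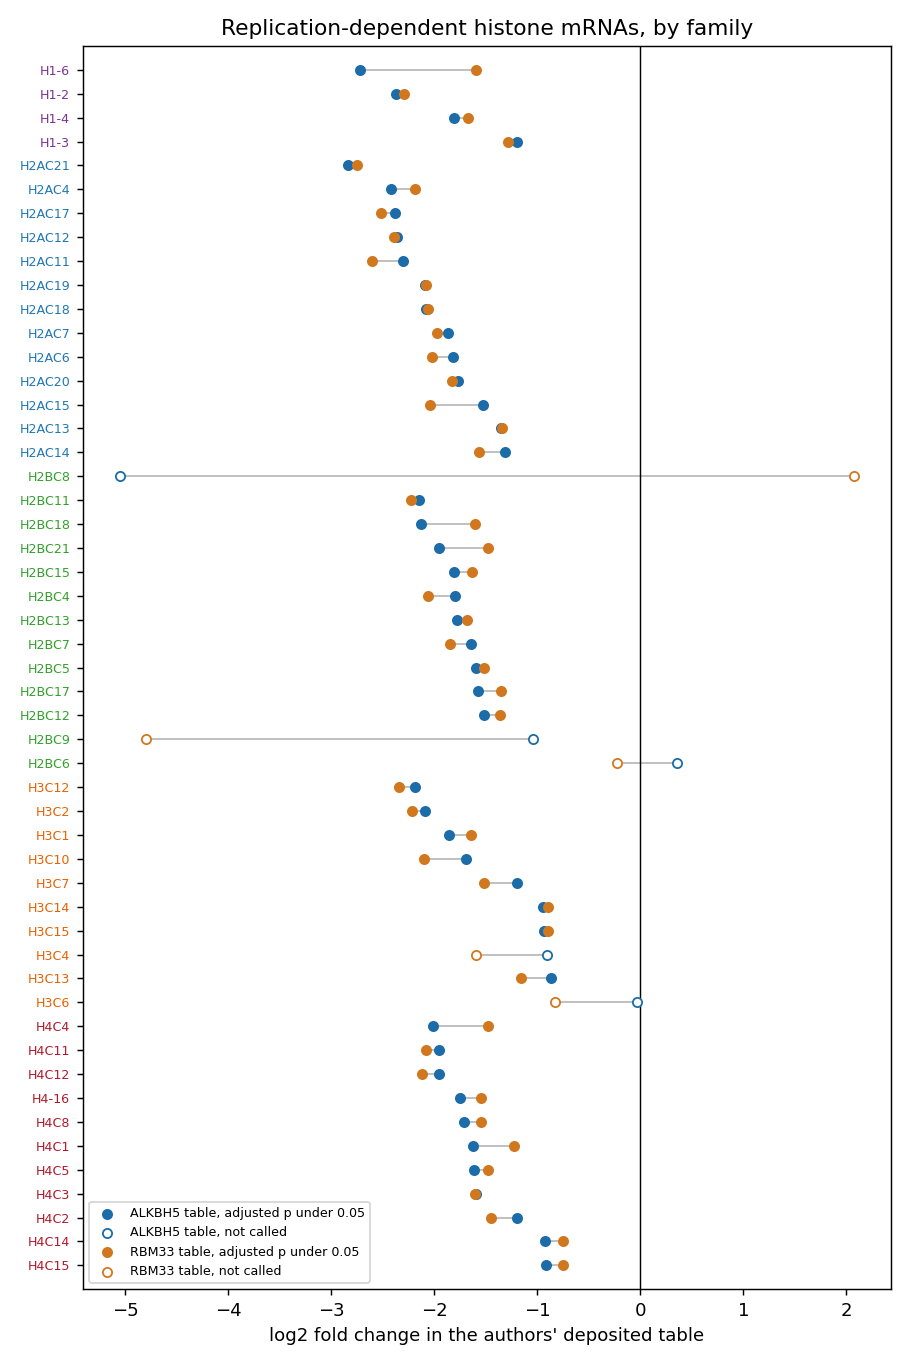
Log2 fold change of each of the 51 members (horizontal axis, log2 units), grouped by histone family; blue points are the authors' ALKBH5 table and orange points their RBM33 table, filled where the adjusted p was under 0.05. All filled points lie below 0, and the open points belong to the 5 members called in neither table.

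Linker histone H1 was represented by H1-2, H1-3, H1-4 and H1-6, and all 4 were negative in each table. H1-4 (chromosome 6, 26156329 to 26157115, hg38) had the highest abundance of all members, with an average log2 CPM of 12.36 per the authors' deposited table on ALKBH5 and 11.95 in that for RBM33. It stood at -1.81 (adjusted p = 0.000306) per the authors' deposited table on ALKBH5 and at -1.68 (adjusted p = 9.06e-05) in that for RBM33. H1-2 came next in abundance, at average log2 CPM 10.98 and 11.06, and was more negative, with log2 fold changes of -2.38 and -2.29 per the authors' deposited tables on ALKBH5 and RBM33. Per kilobase of listed length, H1-4 was still ahead of H1-2 per the authors' deposited table on ALKBH5, at 12.70 against 11.43 log2 CPM per kilobase. Next per kilobase came H3C2 (11.24), H2AC18 (11.17), H2AC19 (11.14) and H2AC20 (10.99) in log2 CPM per kilobase for ALKBH5, per the authors' deposited tables. For RBM33, H3C2 (11.57) was slightly above H1-2 (11.51) in log2 CPM per kilobase, per the authors' deposited tables. H1-3 was the least negative H1 member, at -1.20 and -1.29 per the authors' deposited tables.

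H1-6, the testis-type H1, was scarce. Its average log2 CPM was 3.14 per the authors' deposited table on ALKBH5 and 3.66 in that for RBM33, the lowest of the called members in each. Its log2 fold change was -2.72 (adjusted p = 4.32e-06) per the authors' deposited table on ALKBH5 and -1.60 (adjusted p = 0.00186) in that for RBM33. That difference of -1.12 log2 units was the largest between the tables among called members, and it was not tested.

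H2A mRNAs formed the most negative core family. All 13 were negative in each of the authors' deposited tables, with medians of -2.08 for ALKBH5 and -2.06 for RBM33. H2AC21 (chromosome 1, 149887469 to 149887965) was the lowest called member anywhere, at -2.83 (adjusted p = 5.77e-08) per the authors' deposited table on ALKBH5 and -2.75 (adjusted p = 1.99e-06) in that for RBM33. H2AC4 and H2AC17, both on chromosome 6, were at -2.42 and -2.38 per the authors' deposited table on ALKBH5 and at -2.19 and -2.51 in that for RBM33. At the upper end, H2AC14 stood at -1.31 per the authors' deposited table on ALKBH5, and H2AC13 at -1.34 in that for RBM33. The family spanned average log2 CPM values from 6.38 (H2AC15) to 10.47 (H2AC11) per the authors' deposited table on ALKBH5, so none of its members was scarce. H2AC11, the most abundant, had log2 fold changes of -2.30 and -2.61 per the authors' deposited tables on ALKBH5 and RBM33.

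H2B mRNAs had the widest range over all members, from -5.05 to 0.35 for ALKBH5 and from -4.80 to 2.07 for RBM33 per the authors' deposited tables, and uncalled members set both ends. Of 13, 10 were negative in each of the authors' deposited tables, with medians of -1.78 for ALKBH5 and -1.61 for RBM33. Called H2B members alone spanned a narrower range than those of any other family. Among them, H2BC11 was lowest, at -2.15 per the authors' deposited table on ALKBH5 and -2.23 in that for RBM33. H2BC12 stood at -1.52 per the authors' deposited table on ALKBH5 and at -1.36 in that for RBM33, and H2BC17 at -1.58 and -1.35. H2BC18 and H2BC21 of chromosome 1 were lower in the ALKBH5 table, at -2.13 against -1.61 and -1.95 against -1.48 per the authors' deposited tables. The average log2 CPM of H2BC21 also differed between the authors' deposited tables, 8.67 for ALKBH5 and 7.74 for RBM33. Uncalled members of the family were H2BC6, H2BC8 and H2BC9.

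H3 mRNAs had the highest median for ALKBH5. Of 10, 8 were negative in each of the authors' deposited tables, with medians of -1.07 for ALKBH5 and -1.56 for RBM33. H3C12 was the lowest H3 member of each of the authors' deposited tables, at -2.18 (ALKBH5) and -2.34 (RBM33), and H3C2, the most abundant H3 member, stood at -2.09 and -2.21. The listed span of H3C12 overlaps that of H2AC17 on the same strand, so reads of H2AC17 may enter its value. At the upper end of the called H3 members, H3C13 had -0.87 (adjusted p = 0.0011) per the authors' deposited table on ALKBH5, and H3C15 had -0.89 (adjusted p = 0.00152) in that for RBM33. Of the 10 H3 members, 3 were lower in the ALKBH5 table than in the RBM33 table, against 44.0% of all genes. The near-identical copies H3C14 and H3C15 are both counted, as are the uncalled H3C4 and H3C6.

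H4 mRNAs were negative for all 11 members in each of the authors' deposited tables, with medians of -1.62 and -1.48. H4C4 was the lowest for ALKBH5, at -2.02 (adjusted p = 4.76e-08), and stood at -1.47 per the authors' deposited table on RBM33. H4C12 was the lowest for RBM33, at -2.12, and stood at -1.95 per the authors' deposited table on ALKBH5. H4C11, a neighbour that encodes the same H4 protein, had nearly the same values, -1.95 and -2.08 per the authors' deposited tables. The average log2 CPM of H4C11 and H4C12 differed by only 0.02 for ALKBH5 and 0.05 for RBM33. Their promoter windows, defined below, shared an unbroken run of 126 of 300 bases. Whether these genes share reads was not tested, so they may not be separate measurements. H4-16 is the only member outside chromosomes 1 and 6 (chromosome 12, 14767999 to 14771131). It stood at -1.75 (adjusted p = 0.000134) per the authors' deposited table on ALKBH5 and at -1.54 (adjusted p = 0.000205) in that for RBM33, inside the range of the clustered H4 genes.

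By position, 11 members lay on chromosome 1 between 149782689 and 149887965, and 39 on chromosome 6. Those on chromosome 6 fell into a first block of 24 members, from 26020451 to 26285638, and a second of 15, from 27125897 to 27893891. All 15 members of the second block were negative in each of the authors' deposited tables, with medians of -1.81 (ALKBH5) and -2.08 (RBM33). The first block had 19 of 24 negative in each, with medians of -1.68 and -1.60, and it held all 5 uncalled members. Chromosome 1 had 11 of 11 negative, with medians of -1.77 and -1.48 per the authors' deposited tables on ALKBH5 and RBM33.

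On chromosome 1 the histone types separated. Its 6 H2A and H2B members ranged from -2.83 to -1.77 per the authors' deposited table on ALKBH5, and its 5 H3 and H4 members from -0.94 to -0.87. Per the authors' deposited table on RBM33 the ranges were -2.75 to -1.48 and -1.15 to -0.75. Neither pair of ranges overlapped, although the genes lie side by side. These members include 3 near-identical pairs of copies, described below, so they hold fewer separate measurements than genes. The first block of chromosome 6 had the same order of medians with overlapping ranges, -1.80 for 9 H2A and H2B members against -1.61 for 11 H3 and H4 members for ALKBH5, and -1.97 against -1.52 for RBM33, per the authors' deposited tables. The second block had the opposite order: the 4 H3 and H4 members had lower medians than the 11 H2A and H2B members, -1.95 against -1.78 for ALKBH5 and -2.11 against -1.69 for RBM33 per the authors' deposited tables. The split of chromosome 1 was noticed after its values were seen, and it was not tested. The listed spans of H3C14 and H4C14, and of H3C15 and H4C15, overlap on opposite strands, and whether counting used the strand is not stated, so the values of these partners may mix.

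**Figure D2:**
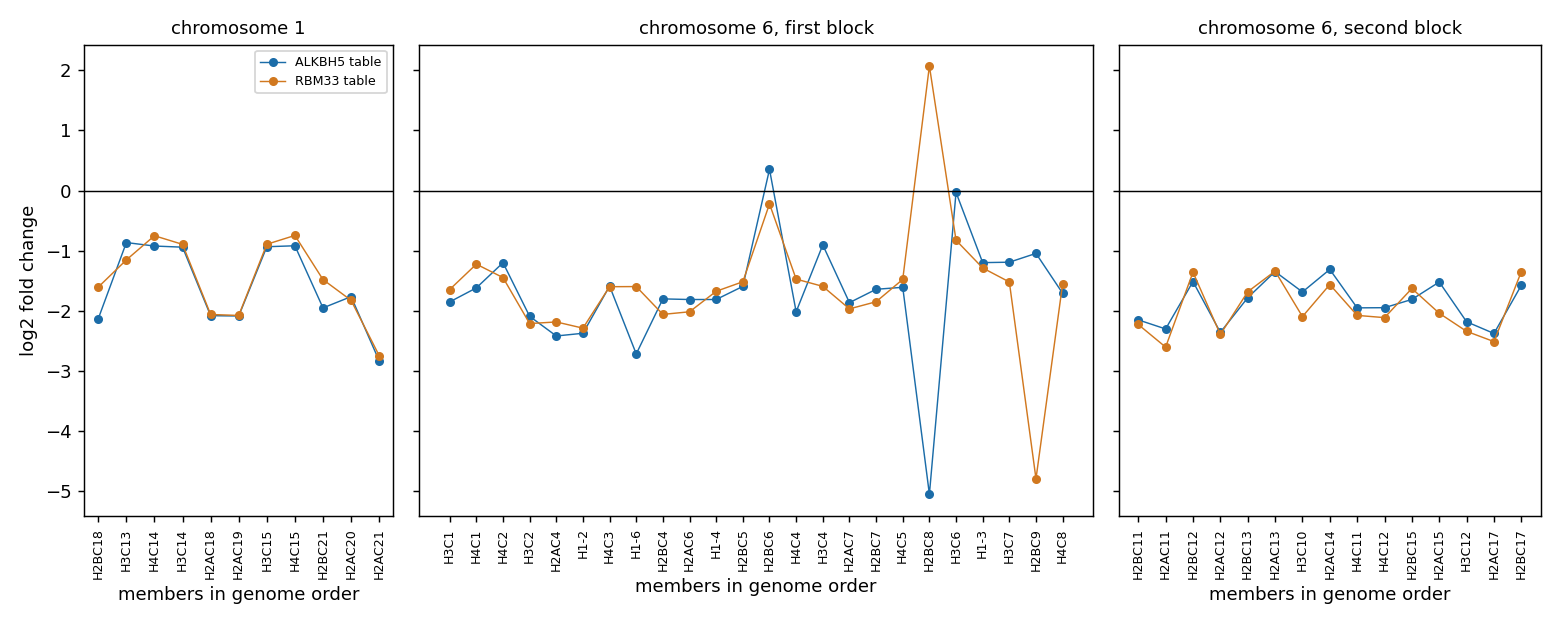
Log2 fold change (vertical axis, log2 units) of members in genome order on chromosome 1 and in both blocks of chromosome 6; blue is the authors' ALKBH5 table and orange their RBM33 table, and lines only join neighbours. On chromosome 1 the H3 and H4 members sit between -1.15 and -0.75, above the H2A and H2B members, and the widest gaps between the tables are at H2BC8 and H2BC9.

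Some members of chromosome 1 are not separate measurements. H2AC18 and H2AC19, H3C14 and H3C15, and H4C14 and H4C15 are copies in opposite orientation, and their RefSeq promoter windows (250 bases before to 50 after the start, GRCh38.p14) shared unbroken runs of 299, 296 and 300 of 300 bases. Their log2 fold changes per the authors' deposited tables on ALKBH5 were -2.08 and -2.09, -0.94 and -0.94, and -0.92 and -0.92. Per the authors' deposited table on RBM33 they were -2.06 and -2.08, -0.90 and -0.89, and -0.75 and -0.75. Reads cannot easily be told apart between such copies, and how the authors treated reads with several matches is not given in the sources used here. Counted once per pair, 43 of 48 members were negative in each of the authors' deposited tables. The 120 bases before each start are shown for these pairs, because they show how alike the copies are, for H2AC21, the lowest called member, and for H2BC8, whose sign differed between the tables. The sequences run 5′ to 3′ on the gene's strand, and capitals mark the TATA letters (TATAAA), the CAAT letters (CCAAT) and the octamer (ATTTGCAT), on either strand.
H2AC18, chr1:149842751-149842870, minus strand: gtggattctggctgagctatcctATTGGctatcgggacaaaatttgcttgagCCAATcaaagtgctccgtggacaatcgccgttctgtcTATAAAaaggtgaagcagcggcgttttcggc
H2AC19, chr1:149850941-149851060, plus strand: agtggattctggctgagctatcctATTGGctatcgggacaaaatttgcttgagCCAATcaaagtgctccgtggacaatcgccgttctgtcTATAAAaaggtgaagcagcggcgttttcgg
H3C14, chr1:149841209-149841328, minus strand: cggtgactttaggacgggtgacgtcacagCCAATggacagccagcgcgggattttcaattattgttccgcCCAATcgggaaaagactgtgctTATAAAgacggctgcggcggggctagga
H3C15, chr1:149852488-149852607, plus strand: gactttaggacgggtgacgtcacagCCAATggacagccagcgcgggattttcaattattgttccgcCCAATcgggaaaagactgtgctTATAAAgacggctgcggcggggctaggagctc
H4C14, chr1:149832537-149832656, plus strand: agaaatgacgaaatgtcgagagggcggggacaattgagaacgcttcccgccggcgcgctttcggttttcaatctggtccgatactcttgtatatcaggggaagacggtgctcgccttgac
H4C15, chr1:149861160-149861279, minus strand: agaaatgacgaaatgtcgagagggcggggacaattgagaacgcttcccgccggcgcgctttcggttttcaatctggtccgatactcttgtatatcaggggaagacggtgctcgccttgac
H2AC21, chr1:149887966-149888085, minus strand: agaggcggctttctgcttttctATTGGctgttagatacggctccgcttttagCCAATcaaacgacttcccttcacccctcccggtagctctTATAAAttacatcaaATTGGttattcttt
H2BC8, chr6:26216689-26216808, minus strand: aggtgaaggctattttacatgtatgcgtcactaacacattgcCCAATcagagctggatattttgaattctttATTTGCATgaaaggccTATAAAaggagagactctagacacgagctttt

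The members also shared letters in these windows that the rule did not use. A RefSeq promoter was found for 46 of 51 members. Within 250 bases before the start, on either strand, CCAAT was present in 38 of 46 members (82.6%) and in 32.0% of all 35116 promoters of the same length. It was present in all 4 H1, 12 H2A, 13 H2B and 9 H3 promoters and in 0 of 8 H4 promoters. TATAAA, the core of the TATA box, was present in 33 of 46 members (71.7%) against 10.7% of all promoters. The octamer ATTTGCAT, bound by POU-domain factors and known from H2B promoters, was present in 10 of 13 H2B and 8 of 12 H2A promoters, in 1 of 9 H3 and in 0 H1 and H4 promoters, against 1.63% of all. Several H2A and H2B genes face each other and share their promoter region, so these matches are not all independent. H2A members with and without the octamer had overlapping log2 fold changes per the authors' deposited tables, with medians of -2.08 (n = 8 genes) and -1.80 (n = 4 genes) for ALKBH5 and -2.10 and -2.05 for RBM33. H2B medians with and without it were -1.72 (n = 10 genes) and -1.78 (n = 3 genes) for ALKBH5, and -1.54 and -1.63 for RBM33. The 3 uncalled H2B members all had the octamer, as did most called ones, and a link with the calls was not tested.

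The 5 members called in neither table were H2BC6, H2BC8, H2BC9, H3C4 and H3C6. Most were scarce: average log2 CPM ran from 0.64 to 4.49 per the authors' deposited table on ALKBH5 and from -0.26 to 2.90 in that for RBM33, while the 46 called members started at 3.14 and 3.66. H2BC9, at 4.49 for ALKBH5, was above the median of all genes, 4.05, per the authors' deposited table on ALKBH5. H2BC6 stood at 0.35 (adjusted p = 0.536) per the authors' deposited table on ALKBH5 and at -0.22 (adjusted p = 0.786) in that for RBM33. H3C6 stood at -0.03 (adjusted p = 0.948) and -0.83 (adjusted p = 0.0878) per the authors' deposited tables on ALKBH5 and RBM33. H3C4 stood at -0.91 (adjusted p = 0.249) and -1.59 (adjusted p = 0.0795), and its listed span overlaps AL031777.2 on the same strand.

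H2BC8 and H2BC9 had the most extreme values of all members without passing the threshold. H2BC8 stood at -5.05 (adjusted p = 0.122) per the authors' deposited table on ALKBH5 and at 2.07 (adjusted p = 0.0959) in that for RBM33. H2BC9 stood at -1.05 (adjusted p = 0.608) per the authors' deposited table on ALKBH5 and at -4.80 (adjusted p = 0.296) in that for RBM33. The degrees of freedom that the authors' F and p imply were 13.2 for 42 of 51 members in the ALKBH5 table and 11.2 for 49 in the RBM33 table. They were 5.59 for H2BC8 in the ALKBH5 table, and 4.25 and 2.85 for H2BC9. For H2BC8 in the RBM33 table they were 11.2, as for most members. Neither sign of H2BC8 passed the threshold, and its difference between the tables was not tested.

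**Figure D3:**
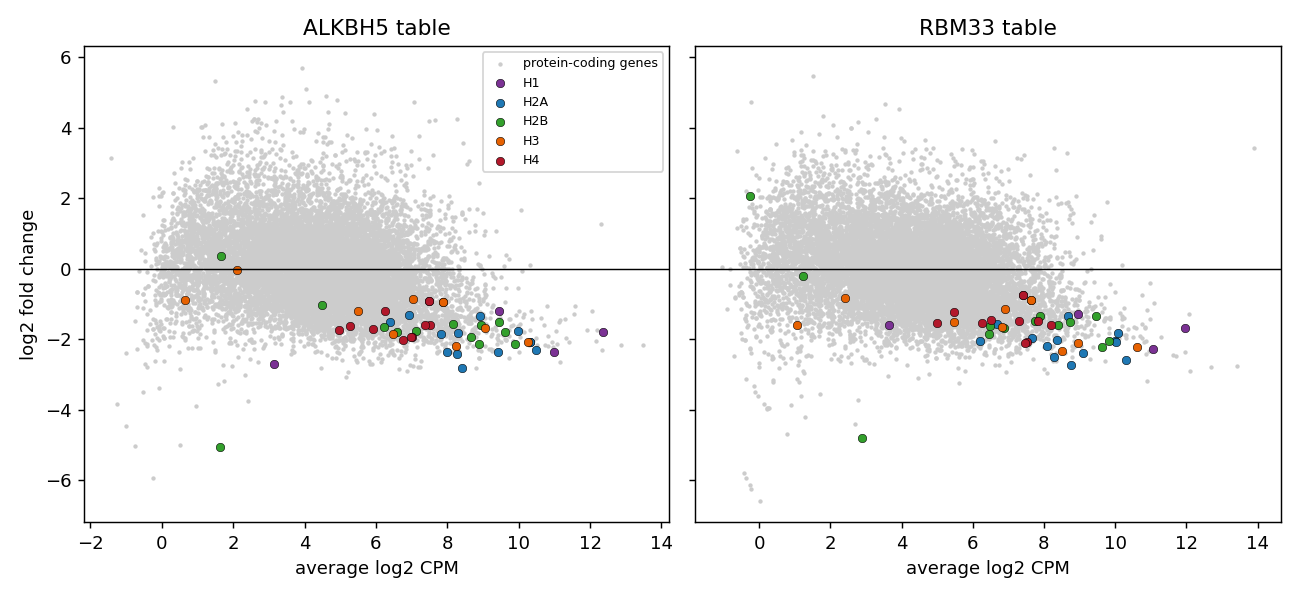
Log2 fold change (vertical axis, log2 units) against average log2 CPM (horizontal axis) for protein-coding genes (grey) and members (coloured by family) in the authors' ALKBH5 table (left) and RBM33 table (right). All members with an average log2 CPM of 6 or more lie below 0, and the members farthest from the others have an average log2 CPM under 5.

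Abundance and length of the rows moved with the result. Among genes with an average log2 CPM of at least 6, 41 of 41 members were negative per the authors' deposited table on ALKBH5 (median -1.81), against 59.5% of 2430 other protein-coding genes (median -0.57). Per the authors' deposited table on RBM33 it was 42 of 42 members (median -1.68), against 57.0% of 2532 others (median -0.61). Among rows with a listed length up to 1000 bases, 31 of 32 members were negative in each of the authors' deposited tables, with medians of -1.81 and -1.68. Of the 251 other protein-coding genes of that length, 55.0% were negative for ALKBH5 (median -1.12) and 57.0% for RBM33 (median -1.23) per the authors' deposited tables. The share of negative calls was thus higher among abundant or short protein-coding genes than among all of them, and higher still among the histone members. The part of length and abundance in the members' values was not tested.

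**Figure D4:**
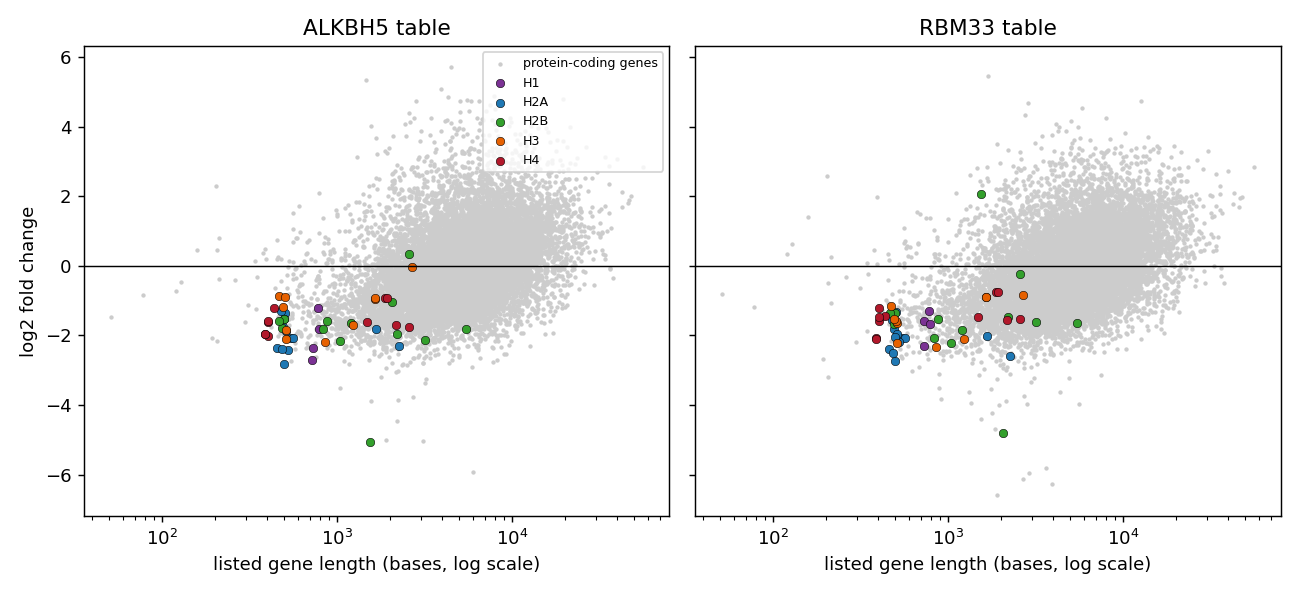
Log2 fold change (vertical axis, log2 units) against listed gene length in bases (horizontal axis, log scale) for protein-coding genes (grey) and members (coloured by family), in the authors' ALKBH5 table (left) and RBM33 table (right). Most members sit at the short end, from 387 bases, and a tail of members has listed lengths up to 5477 bases.

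The listed length is not always that of the usual histone mRNA. Of the 19 members with a listed length of at least 1000 bases, 14 spanned under 1000 bases in RefSeq, so the listed length exceeds the RefSeq gene for them. H2BC15 had 5477 listed bases against a RefSeq span of 542, and H2AC11 had 2250 against 493. These 19 members had 15 negative calls in each of the authors' deposited tables, with medians of -1.69 for ALKBH5 and -1.54 for RBM33. Of the 5 uncalled members, 4 belonged to these long rows and H3C4, at 503 bases, did not.

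Members were lower in the ALKBH5 table than in the RBM33 table for 26 of 51 genes, against 44.0% of all genes and 45.0% of protein-coding genes. The absolute difference exceeded 0.5 log2 units for 9 members (17.6%), against 23.4% of protein-coding genes. The 5 largest were those of H2BC8 (-7.13, ALKBH5 minus RBM33), H2BC9 (3.75), H1-6 (-1.12), H3C6 (0.80) and H3C4 (0.69), computed from the authors' deposited tables. Of these, only H1-6 was called.

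Variant histones, which outside S phase replace the replication-dependent types and mostly have polyadenylated mRNAs, were also mostly negative, with medians closer to 0. Of 26 genes in the fixed list, 13 had a row, and 12 were negative and 0 positive in each of the authors' deposited tables. The medians were -1.17 for ALKBH5 and -1.06 for RBM33. That is 92.3% negative in each, against 90.2% of the members and 29.1% (ALKBH5) and 27.0% (RBM33) of all genes. The list's median average log2 CPM was 7.55 and 7.45. Of protein-coding non-members at 6 or more, 59.5% and 57.0% were negative. H2AZ1, the H2A.Z of active promoters, stood at -1.78 and -1.92, and H3-3A, which encodes H3.3, at -1.48 and -1.59 per the authors' deposited tables on ALKBH5 and RBM33. H2AW was the lowest of the list, at -2.27 and -2.51 per the authors' deposited tables. It is a gene of a small histone cluster on chromosome 1 whose listed name falls outside the member rule. The list is therefore not purely one of polyadenylated variants. Other names in it, such as H2BU1 (-1.43 and -1.06 per the authors' deposited tables), were not checked for this. The centromeric H3 variant CENPA was negative for ALKBH5 (-1.01) and not called for RBM33 (-0.28, adjusted p = 0.424) per the authors' deposited tables. Ribosomal protein mRNAs, which are polyadenylated, had shares as high as the histones: 81 of 84 cytosolic ribosomal protein genes were negative in each of the authors' deposited tables. Their medians, -1.59 for ALKBH5 and -1.48 for RBM33, were near the members' -1.77 and -1.61. Of 13 mitochondrial mRNAs, 12 were negative in each, with medians of -1.74 and -2.43, the second below that of the members. Strongly negative values were thus not particular to the histone members.

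**Figure D5:**
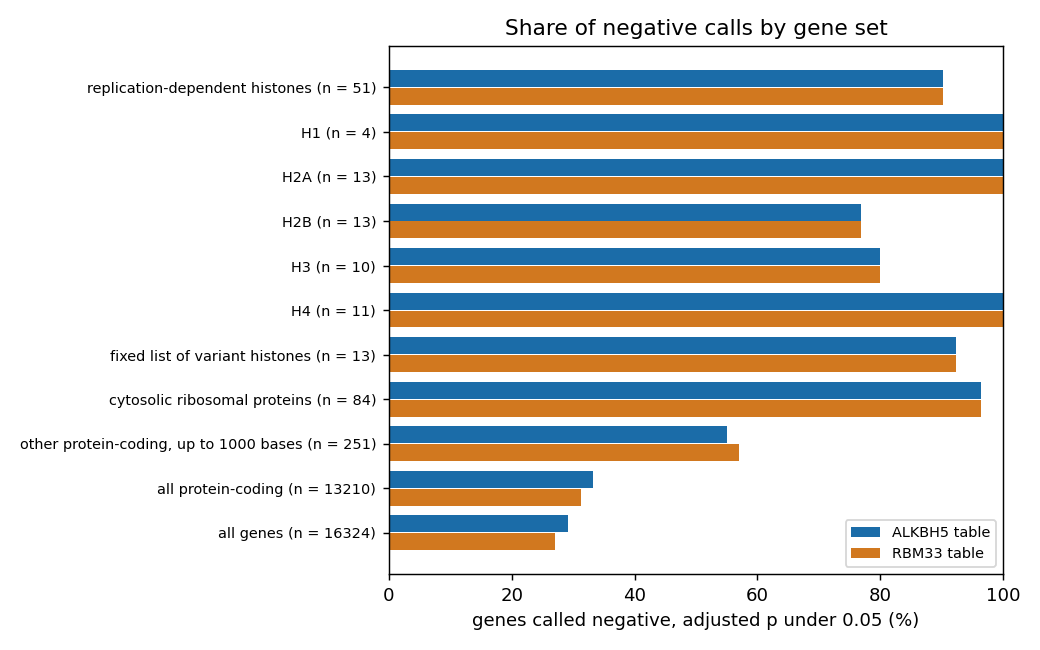
Share of genes called negative at an adjusted p under 0.05 (horizontal axis, percent) for the members, their families and comparison sets; blue bars are the authors' ALKBH5 table and orange bars their RBM33 table, and n is the number of genes. Members stand at 90.2% in both tables, ribosomal protein genes at 96.4%, and all genes at 29.1% and 27.0%.

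The machinery of histone mRNA had calls of both signs. Of 45 genes for 3′ end formation, export, translation and decay of histone mRNA, 44 had a row, with 10 positive and 19 negative per the authors' deposited table on ALKBH5 (median -0.14) and 11 and 19 in that for RBM33 (median -0.25). That is 43.2% negative in each, against 29.1% and 27.0% of all genes, and 22.7% and 25.0% positive, against 30.5% and 24.0%. Of protein-coding genes, 33.3% and 31.2% were negative. SLBP was negative, at -1.16 (adjusted p = 9.24e-06) and -0.96 (adjusted p = 0.000212) per the authors' deposited tables on ALKBH5 and RBM33. LSM10, a ring protein particular to the U7 particle, stood at -0.97 and -1.21 per the authors' deposited tables, and its partner LSM11 was not called (-0.51, adjusted p = 0.0548, and -0.47, adjusted p = 0.224). The ring proteins shared with spliceosomal particles were negative, such as SNRPE at -1.86 and -2.07 and SNRPF at -1.51 and -1.70 per the authors' deposited tables. NPAT, the coactivator of histone genes in S phase, was positive, at 1.41 (adjusted p = 5.15e-06) and 1.13 (adjusted p = 0.00105) per the authors' deposited tables. CASP8AP2, another protein of the histone locus body, stood at 0.77 and 0.58, and CTIF, which serves translation of mRNAs bound by the nuclear cap complex, at 1.95 and 2.15 per the authors' deposited tables. LSM1 and LSM4, of the ring that starts decay of deadenylated or oligouridylated mRNA, stood at -1.72 and -1.60 for ALKBH5 and -1.54 and -1.95 for RBM33 per the authors' deposited tables.

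Histone chaperones, which carry histones to and from DNA, had calls of both signs as well. Of 29 genes, 9 were positive and 17 negative per the authors' deposited table on ALKBH5 (median -0.70), and 8 and 16 in that for RBM33 (median -0.62). The negative shares were 58.6% and 55.2%, against 29.1% and 27.0% of all genes. The positive shares, 31.0% and 27.6%, were near the 30.5% and 24.0% of all genes. The list's median average log2 CPM was 6.82 and 6.37. Of protein-coding non-members with an average log2 CPM of at least 6, 59.5% and 57.0% were negative, near the list's shares. NAP1L1 stood at -1.93 and -1.94 and NPM3 at -1.79 and -2.17 per the authors' deposited tables on ALKBH5 and RBM33. ANP32E, a chaperone of H2A.Z, stood at -1.74 and -1.59, and NPM1 at -2.17 and -1.98, in the same order, per the authors' deposited tables. Genes of S-phase DNA replication had 8 positive and 21 negative of 42 for ALKBH5 (median -0.32) and 4 and 24 for RBM33 (median -0.53) per the authors' deposited tables. Among all genes 29.1% and 27.0% were negative and 30.5% and 24.0% positive, while for RBM33 the list had 57.1% negative and 9.52% positive. TYMS, which makes thymidylate, stood at -1.70 and -1.68, and POLE, the leading-strand polymerase, was positive at 1.45 and 1.52 per the authors' deposited tables on ALKBH5 and RBM33. RFC2, a subunit of the clamp loader, stood at -1.50 (adjusted p = 2.05e-05) per the authors' deposited table on RBM33 and was also negative for ALKBH5.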

How the data were processed

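The submitters' processing notes name edgeR 3.24.3, featureCounts, Subread 1.6.4, HISAT2 2.1.0 and cutadapt 1.18 and build hg38; per the labels' protocols, lysates in 0.1% NP-40 gave stranded total RNA libraries, which do not select poly(A). The annotation release, strand setting, treatment of reads with several matches and normalization were not given in the sources used here. The authors' deposited values are, per the file headers, log2 fold changes, average log2 CPM, an F statistic (a score), p-values and adjusted p-values per gene. The p-values may measure only technical spread. A Benjamini-Hochberg adjustment recomputed over all genes gave the listed adjusted p-values.

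The members, gene lists and naming rule were chosen with earlier results of these data known. Named were the extremes of each family, all uncalled and H1 members, H4-16, the 5 most abundant, the 5 largest differences between tables, and the 3 called genes of smallest adjusted p in each list; other members named were chosen after their values were seen. Some genes this rule names are not reported here. Genes were counted as called at an adjusted p under 0.05, beside all genes; no set test was run. Implied degrees of freedom solve the F distribution for the listed p. Python 3.11.15, pandas 2.3.3 and scipy 1.17.1 were used; the adjustment and counting were tested on simulated data. RefSeq promoters were matched by symbol.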

Additional observations from a re-analysis of the deposited data

How the results depend on the processing

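The counts of negative members stayed within 1.5 times the main count under every alternative run. Some runs dropped members, so their counts depend on how many were kept. With listed lengths under 1000 bases 31 of 32 were negative for each bait, and without same-strand overlaps 43 of 47. At or above the median abundance it was 45 of 46 for ALKBH5 and 45 of 45 for RBM33. Medians moved little. With genes at or above the median abundance they were -1.78 (ALKBH5) and -1.65 (RBM33), without same-strand overlaps -1.75 and -1.60, with listed lengths under 1000 bases -1.81 and -1.68, centred on protein-coding genes -1.69 and -1.48, and with near-identical copies counted once, an alternative chosen after seeing the data, -1.78 and -1.62. No paired analysis was possible because the authors' deposited tables hold no values per library, and for the same reason no replicate could be left out. Depth and replicate spread are unknown here, so no member's value has an interval.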

Other observations

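Histone rows outside the members went both ways. Of 9 histone pseudogene rows, chosen after their values were seen, 5 were negative and 2 positive in each of the authors' deposited tables. Of all genes, 29.1% and 27.0% were negative and 30.5% and 24.0% positive for ALKBH5 and RBM33. The positive rows were H2BC19P (2.22, adjusted p = 0.00168, and 1.45, adjusted p = 0.0176) and H2BC20P (2.14, adjusted p = 0.000393, and 2.19, adjusted p = 0.00147), for ALKBH5 and RBM33 per the authors' deposited tables. Their listed lengths are 3612 and 6440 bases. Both were scarcer than every called member, with average log2 CPM of 2.06 and 2.77 for ALKBH5 and 1.91 and 2.54 for RBM33. H2BP1, a transcribed pseudogene of 756 listed bases, stood at -3.38 for ALKBH5 and -1.80 for RBM33 per the authors' deposited tables. The protein-coding genes H3-2 and H2BS1, whose names fall outside the rule, stood at -1.53 and -1.45 for ALKBH5 and at -1.06 and -1.32 for RBM33 per the authors' deposited tables. Pseudogenes can share reads with the genes they copy.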
